A study of Mus musculus with 16 samples.

Results

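The genes described here encode 10 subunits of the SWI/SNF (BAF) chromatin remodelling complexes: the ATPases Smarca2 and Smarca4, the core subunits Smarcb1, Smarcc1, Smarcc2, Smarcd1 and Smarce1, and the targeting subunits Arid1a, Arid1b and Pbrm1. They were picked by symbol from the 17655 genes listed for each sample, and all 10 passed the filter on low values that left 12357 genes to test. Smarca2 was selected on its lower level in empty than in Wnt5a cells in these same samples, so its difference between the groups is given as a description without a test, and the other 9 were chosen as its partners. The samples are mouse preSC cells, Chga-positive neuroendocrine cells of the lung that serve as precursors in the study of small cell lung cancer. Both groups of 8 RNA sequencing samples share one genotype (Rb1 null, Trp53 null, Rbl2 heterozygous null) and one treatment, doxycycline at 1 µg/mL for 48 hours. The empty group was infected with a lentiviral control without insert and the other group with lentiviral-Wnt5a, which carries a secreted Wnt ligand. The design compares cells with the Wnt5a vector against these controls. The labels do not give the promoter of the vector, the number of clones or whether samples came from separate cultures.

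SWI/SNF complexes use the energy of ATP to slide or eject nucleosomes and so open chromatin. Each complex holds 1 ATPase, either SMARCA4 (BRG1) or SMARCA2 (BRM), with a set of core subunits that is not the same in every form. Different subunits direct them: ARID1A or ARID1B in canonical BAF, PBRM1, ARID2 and BRD7 in PBAF, and BRD9 with BICRA in the non-canonical form. In neural differentiation several subunits are exchanged for a paralog, among them ACTL6A for ACTL6B, PHF10 and DPF2 for DPF1 and DPF3, and SS18 for SS18L1.

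Each sample held 7526676 to 8859862 reads on listed genes. Samples 1 to 4 of a group differed from each other by no more than sampling noise, as did samples 5 to 8: over the 24 such pairs the index of dispersion of the reads was 0.987 to 1.05, against 5.23 to 5.44 for the 32 pairs across the sets. They were therefore averaged and counted as 1 library each, A and B, so that n = 2 per group and p-values measure only the spread between these libraries, which may be technical. Wnt5a itself had a normalised read count of 122 ± 31.4 (SD, n = 2) in empty and 1279 ± 325 in Wnt5a cells. Rb1 transcripts were counted at 3223 ± 8.73 and 3193 ± 34.0, which does not check the null label, since the labels do not say which part of the gene was deleted. Trp53 was at 67.4 ± 3.71 in empty and 90.9 ± 9.04 in Wnt5a cells, and Rbl2 at 321 ± 4.56 and 351 ± 25.6. Nothing on the genotype is read from these levels. All 10 neuroendocrine markers were at 10 or more in both groups, with summed levels of 56554 to 58793 in empty and 51489 to 54981 in Wnt5a samples. Of the fibroblast markers 4 of 5 were listed, and in the median sample only Dcn reached 10, while Pdgfra was at up to 15.2 in empty and 3.76 in Wnt5a samples. Their sum was 327 to 636 in empty and 235 to 263 in Wnt5a samples, with Col1a2 at 0 in all empty samples. Leukocyte markers, 3 of 5 listed, summed to 8.85 to 16.4 in empty and 4.68 to 19.8 in Wnt5a samples. Most of this was Cd68, at 10.9 and 10.8 on average, while Cd3e was at 0 in all Wnt5a samples. Endothelial markers, 3 of 4 listed, summed to 1.10 to 11.1 and 0.934 to 5.64, with Cdh5 at 0 in all Wnt5a samples. Lung epithelial markers, 4 of 6 listed, summed to 34.7 to 64.0 and 35.6 to 48.0. Most of that was Foxj1, at 23.9 and 22.4 on average, and Ager, at 12.9 and 13.1. The part of any such cells in the results on SWI/SNF genes was not tested. In bulk RNA, fewer cells that express a gene and less RNA per cell cannot be told apart.

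Smarca2 and Smarca4 encode closely related ATPases, so reads of one could in principle be counted for the other. Which part of the pair is most conserved was not measured. A stretch of both coding sequences around the DExH box, the motif of the ATPase that gives the helicase superfamily its name, is shown as an example (GENCODE M21 transcripts on GRCm38, positions counted from the first base of the start codon, capitals marking the bases that differ):
Smarca2, coding bases 2542 to 2637: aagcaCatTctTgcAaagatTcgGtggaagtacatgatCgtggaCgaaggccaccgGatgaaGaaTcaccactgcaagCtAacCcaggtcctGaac
Smarca4, coding bases 2599 to 2694: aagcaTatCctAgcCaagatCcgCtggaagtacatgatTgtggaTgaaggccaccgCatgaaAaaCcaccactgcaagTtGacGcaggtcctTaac
Of these 96 bases 15 differed, and 0 of the 32 codons encoded another amino acid. The longest run that the coding sequences of 4752 and 4854 bases have in common is 20 bases long, at bases 571 to 590 of Smarca2 and 565 to 584 of Smarca4:
Longest shared run: atgttggccaggggccagcc
All 5872 windows of 50 bases in the longest Smarca2 transcript occurred in transcripts of that gene only, and 99.9% of those of Smarca4 did. At that length no annotated Smarca4 transcript matched this Smarca2 transcript exactly. Matches with mismatches and other Smarca2 transcripts were not examined. The read length of the study was not given in the sources used here.

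Smarca2 was low but detected in all empty samples, with 7 to 26 reads each, and was higher in all Wnt5a samples. Its normalised read count was 7.73, 23.2, 23.0 and 18.8 in empty samples 1 to 4, and 19.4, 26.4, 14.2 and 19.4 in samples 5 to 8. In Wnt5a cells it was 171, 153, 173 and 162 in samples 1 to 4 and 126, 153, 116 and 117 in samples 5 to 8. The lowest Wnt5a sample thus stood well above the highest empty sample, and within the Wnt5a group the first 4 samples tended to be the higher ones.

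The reads behind these values were few in empty cells. They numbered 66 in library A (exact Poisson 95% interval 51.0 to 84.0) and 78 in library B (61.7 to 97.3), against 701 (650 to 755) and 546 (501 to 594) in the Wnt5a libraries. Such intervals cover counting error only. The library means were 19.0 ± 1.18 (SD, n = 2) in empty and 146 ± 25.9 in Wnt5a cells, a ratio of 7.69. Within library A the ratio was 9.05 and within library B 6.44. On the log2(value + 1) scale, on which changes of low genes come out too small, Smarca2 differed by 2.87, and 47 of the genes tested had a larger one in that direction. Where on the transcript these reads lie could not be seen, since only 1 value per gene and sample was available.

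**Figure D1:**
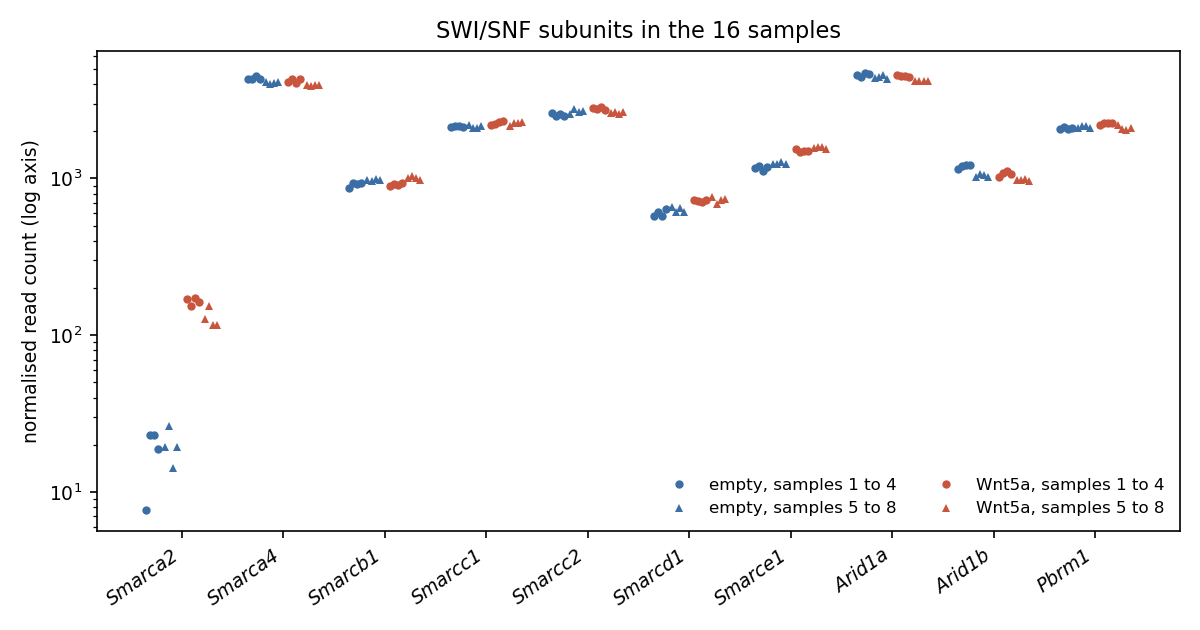
Normalised read count on a log axis for each of the 10 SWI/SNF genes; each point is 1 sample, empty in blue and Wnt5a in red, circles for samples 1 to 4 and triangles for samples 5 to 8. Smarca2 lies at 7.73 to 26.4 in empty and 116 to 173 in Wnt5a samples, while Smarca4 lies at 3898 to 4514 over both groups.

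Smarca2 lies on chromosome 19 (RefSeq gene table, GRCm38.p6), whose 412 tested genes had a median difference of 0.36 on the log2 scale, against 0.0026 for all genes tested. With that median taken off, the difference of Smarca2 was 2.51. The cause of the shift of the chromosome median was not tested. Its 5 nearest tested genes on either side had a median difference of 0.30, and 8 of these 10 were higher in Wnt5a cells. On one side lie Kank1, at -0.11, Cbwd1, at 0.38, Pgm5, at 0.28, Fam122a, at 0.32, and Pip5k1b, at 0.11. On the other side Pum3 differed by 0.67 and was the 1 neighbour that passed the test, followed by Rfx3 at 0.15, Glis3 at -0.42, Plpp6 at 0.49 and Cdc37l1 at 0.32. No neighbour came near the difference of Smarca2, which was chosen for that difference. Between Kank1 and Pum3 the genes Dmrt1, Dmrt2 and Vldlr, which were too low to test, had 0 to 2 reads per library in both groups.

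**Figure D2:**
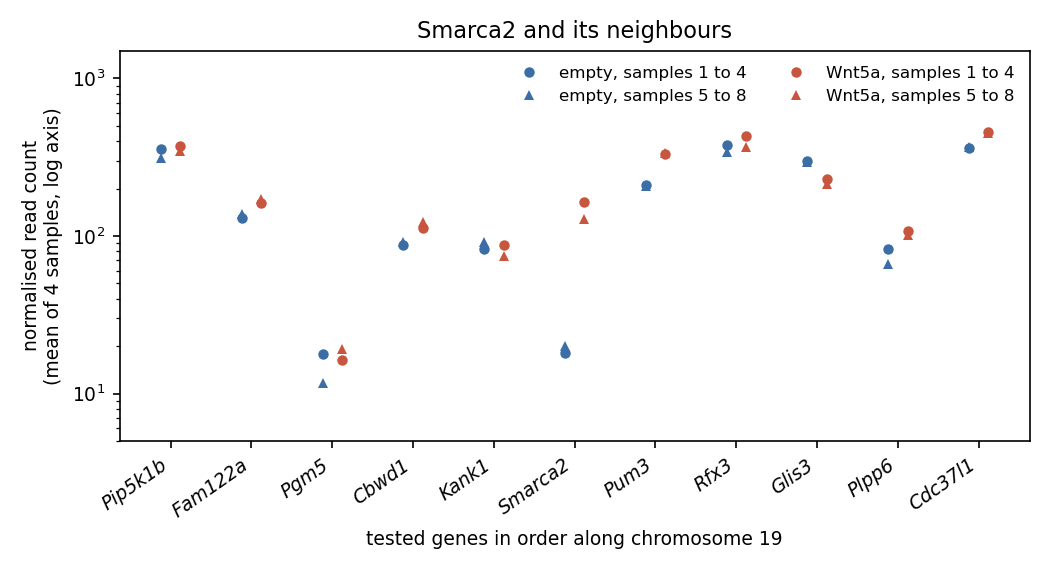
Normalised read count on a log axis of Smarca2 and the 5 tested genes on either side of it in chromosomal order; each point is the mean of 4 samples, empty in blue and Wnt5a in red, circles for samples 1 to 4 and triangles for samples 5 to 8. Smarca2 moves from 18.2 and 19.9 to 165 and 128, while Pum3, the neighbour with the largest difference, moves from 212 and 208 to 332 and 337.

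The genes whose levels followed Smarca2 most closely over the 16 samples are given as a description, since the samples share 4 libraries and fall into the 2 groups that chose Smarca2. By Pearson's r on the log2 scale these were Osbp (0.989), which encodes an oxysterol binding protein, Impdh2 (0.980), an enzyme of guanine nucleotide synthesis, Rcor2 (0.980), a corepressor of the CoREST family, G3bp1 (0.978), a stress granule protein, and Btf3l4 (0.977). Osbp and Rcor2 lie on chromosome 19 as Smarca2 does. Rcor2 had values of 108 and 111 in the empty libraries and 225 and 208 in the Wnt5a libraries. Impdh2, on chromosome 9, had 478 and 505 against 773 and 797. All 5 were higher in both Wnt5a libraries than in both empty libraries, by less than Smarca2.

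Smarca4, the paralogous ATPase, did not differ detectably between the groups. Its normalised read count was 4026 in the lowest, 4205 in the median and 4514 in the highest empty sample, and 3898, 3999 and 4285 in Wnt5a samples. The groups overlapped over most of their range. Smarca4 differed by -0.06 in log2 units (SE 0.08; limma adjusted p = 0.821), with a 95% interval of -0.25 to 0.13. It was -0.06 in library A and -0.05 in library B.

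Dividing by transcript length puts both ATPases on one scale, normalised read count per kilobase of the longest transcript. Smarca4 was at 662 ± 30.3 (SD, n = 2) per kb in empty and 636 ± 27.4 in Wnt5a cells, Smarca2 at 3.21 ± 0.199 and 24.7 ± 4.37. Smarca4 therefore exceeded Smarca2 by 206-fold in empty and by 25.8-fold in Wnt5a cells. Smarca2 made up 0.484% ± 0.0519 of the per-kilobase level of the pair in empty cells, with single samples at 0.192% to 0.702%, and 3.72% ± 0.482 in Wnt5a cells, at 3.06% to 4.40%. The summed level of the pair was 665 ± 30.1 and 661 ± 31.8 per kb, a difference smaller than the spread between libraries. Among 12225 tested genes with a transcript length, 1.81% lay below Smarca2 in empty and 17.3% in Wnt5a cells, whereas 94.1% and 93.8% lay below Smarca4.

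Among the core subunits, Smarcb1, Smarcc1 and Smarcc2 showed no detectable difference between the groups. Smarcb1 (SNF5), which contacts the acidic patch of the nucleosome and is lost in rhabdoid tumours, had normalised read counts of 869, 950 and 989 (lowest, median, highest) in empty and 895, 954 and 1031 in Wnt5a samples. These ranges overlapped almost fully, and Smarcb1 differed by 0.02 in log2 units (SE 0.08; limma adjusted p = 0.947), with an interval of -0.17 to 0.22. Left without 1 library in turn, it ran from -0.05 to 0.09.

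Smarcc1 (BAF155) and Smarcc2 (BAF170) form a dimer on which canonical BAF and PBAF assemble. Smarcc1 was at 2099, 2145 and 2202 in empty and 2147, 2257 and 2327 in Wnt5a samples, and its groups overlapped at the edges. Its log2 difference was 0.07 (SE 0.07; limma adjusted p = 0.736), with an interval of -0.10 to 0.23. Smarcc2 was at 2510, 2591 and 2771 against 2561, 2699 and 2851, with wide overlap. Its log2 difference of 0.05 (SE 0.08; limma adjusted p = 0.830; interval -0.13 to 0.23) combined 0.13 in library A with -0.02 in library B. Smarcc1 contributed 39.4% ± 0.799 of the per-kilobase sum of the pair in empty and 39.6% ± 0.809 in Wnt5a cells, a difference smaller than the spread between libraries.

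Smarcc1 lies on chromosome 9, and its 10 nearest tested genes had a median difference of -0.07 on the log2 scale. They ranged from -0.33 for Map4, a microtubule-associated protein, to 0.14 for Elp6, a subunit of Elongator. The other neighbours were at -0.14 (Scap), -0.13 (Nme6), -0.12 (Klhl18), -0.11 (Ptpn23), -0.03 (Dhx30), 0.0027 (Cspg5), 0.01 (3000002C10Rik) and 0.06 (Cdc25a). None of the 10 passed the test; Smarcc1 lay within their range.

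Smarcd1 and Smarce1 were the core subunits with the largest differences. Smarcd1 (BAF60A), which links the complex to transcription factors, was at 574, 614 and 657 in empty and 687, 726 and 757 in Wnt5a samples. Every Wnt5a sample was above every empty sample. The log2 difference was 0.23 (SE 0.07; interval 0.06 to 0.41), 0.26 in library A and 0.20 in library B, and missed the threshold of 0.05 (limma adjusted p = 0.189). With library (A or B) as a block, called the replicate block below, it passed (limma adjusted p = 0.0211). That model leaves 1 residual degree of freedom per gene. Of the windows of 50 bases in its transcript, 90.3% were unique to Smarcd1, the rest being shared with Gm17349 and Gm34939.

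Smarce1 (BAF57), an HMG-box subunit that binds DNA, had values of 1115, 1223 and 1280 in empty and 1479, 1530 and 1589 in Wnt5a samples. Here too the groups did not overlap. The log2 difference was 0.34 (SE 0.08; interval 0.16 to 0.52), with 0.36 in library A and 0.32 in library B. It missed the threshold (limma adjusted p = 0.0876) and passed with the replicate block (limma adjusted p = 0.0044), by DESeq2 on the recovered reads (adjusted p = 0.0313) and in limma without empty library B (adjusted p = 0.029). Over all alternatives the adjusted p ran from 1.1e-08, with the 16 samples counted separately, to 0.473. The latter came with the median of its chromosome, 0.17 for chromosome 11, taken off, which left 0.17 for Smarce1. Its value is uncertain also because only 64.9% of the windows in its transcript were unique to it, others being shared with pseudogenes such as Smarce1-ps1.

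The ARID subunits of canonical BAF were slightly lower in Wnt5a cells, within the spread. Arid1a, the largest DNA-binding subunit and a frequent target of mutation in cancer, was at 4305, 4505 and 4729 in empty and 4170, 4326 and 4537 in Wnt5a samples. Its log2 difference was -0.05 (SE 0.08; limma adjusted p = 0.830; interval -0.24 to 0.14), and the ranges overlapped. Arid1b, its mutually exclusive paralog, was at 1014, 1101 and 1225 against 959, 1002 and 1123. That difference was -0.12 (SE 0.10; limma adjusted p = 0.632; interval -0.35 to 0.11), again with overlap. Arid1a made up 84.8% ± 0.877 of the per-kilobase sum of both in empty and 85.5% ± 0.207 in Wnt5a cells.

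Pbrm1 (BAF180), the multi-bromodomain subunit that marks PBAF, was at 2078, 2096 and 2158 in empty and 2048, 2186 and 2268 in Wnt5a samples. The empty samples lay inside the wider range of the Wnt5a samples. Its log2 difference was 0.04 (SE 0.07; limma adjusted p = 0.888; interval -0.14 to 0.21), at 0.09 in library A and -0.02 in library B.

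Leaving Smarca2 aside, 6 of the other 9 genes were higher and 3 lower in Wnt5a cells, with a median log2 difference of 0.04 and a range of -0.12 to 0.34. By limma 0 of the 9 passed, beside 2.06% of all genes tested (171 higher and 83 lower), and 2 of the 9, Smarcd1 and Smarce1, had an unadjusted p under 0.05, as had 1988 of the 12357 genes. On the recovered reads edgeR called 0 and DESeq2 called 1, Smarce1, beside 246 and 538 of all genes. With the replicate block the 2 passed, both higher, beside 17.0% of all genes. Sample ranges did not overlap for 3 of the 10, Smarca2 included, beside 12.4% of all genes. The genes were chosen with these results known, so nothing is read from these counts.

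**Figure D3:**
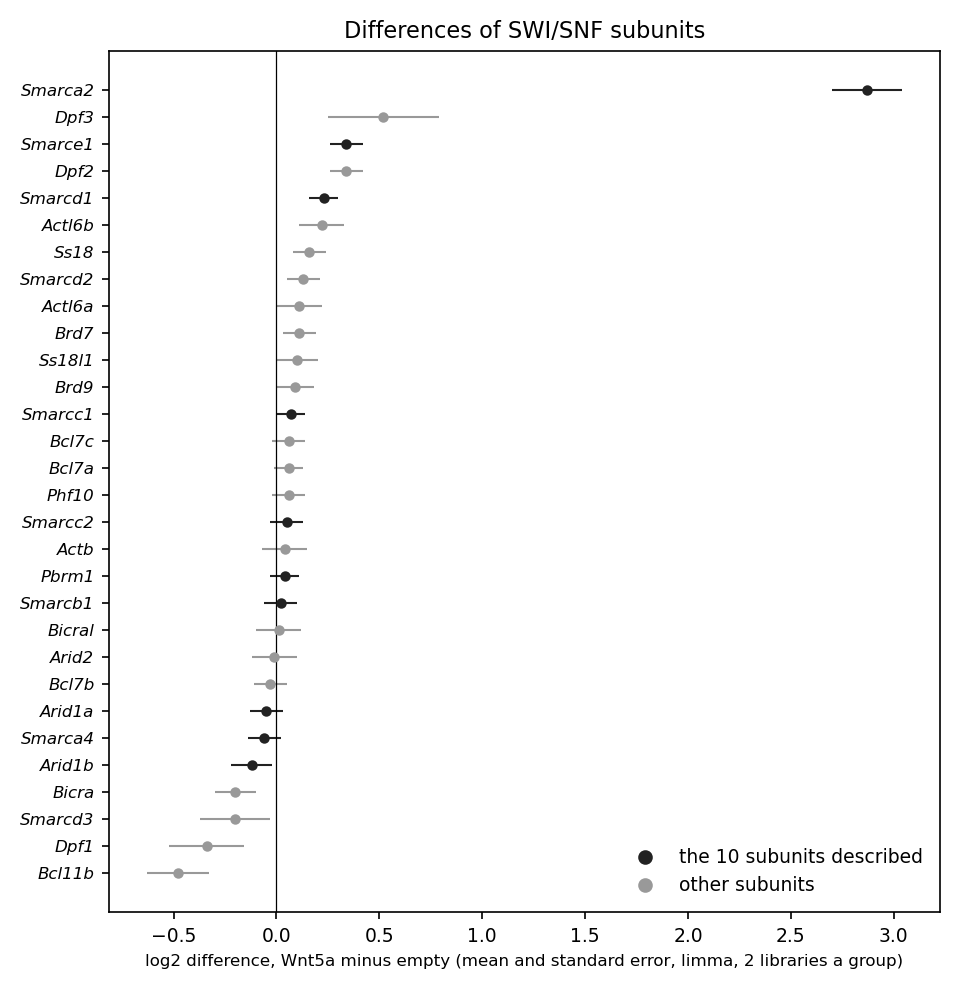
Log2 difference, Wnt5a minus empty cells, of the 10 SWI/SNF genes (black) and 20 other subunits (grey); points are limma estimates from 2 libraries per group and bars their standard errors. Smarca2 stands at 2.87, chosen for this difference, and the other 9 black points lie between -0.12 (Arid1b) and 0.34 (Smarce1).

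Per kilobase of transcript the 10 genes kept one order in both groups. In empty cells Smarca4, at 662 ± 30.3 per kb, was followed by Smarcc2 at 572 ± 18.7, Smarcb1 at 570 ± 24.6 and Arid1a at 550 ± 17.3, whose sample ranges overlapped, so that these 3 are not separable. Below them came Smarce1 at 414 ± 21.0 per kb, Smarcc1 at 372 ± 0.295, Pbrm1 at 267 ± 2.44, Smarcd1 at 186 ± 6.49 and Arid1b at 98.5 ± 9.79, each with a sample range apart from its neighbours in the order. Smarca2 was last at 3.21 ± 0.199 per kb. In Wnt5a cells the ranges of Smarca4, Smarcc2, Smarcb1, Arid1a and Smarce1 each overlapped the next, and Smarca2, at 24.7 ± 4.37 per kb, was again the lowest, below Arid1b at 90.3 ± 6.09. Lengths are those of the longest annotated transcript, so the levels shift if the cells use shorter forms.

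**Figure D4:**
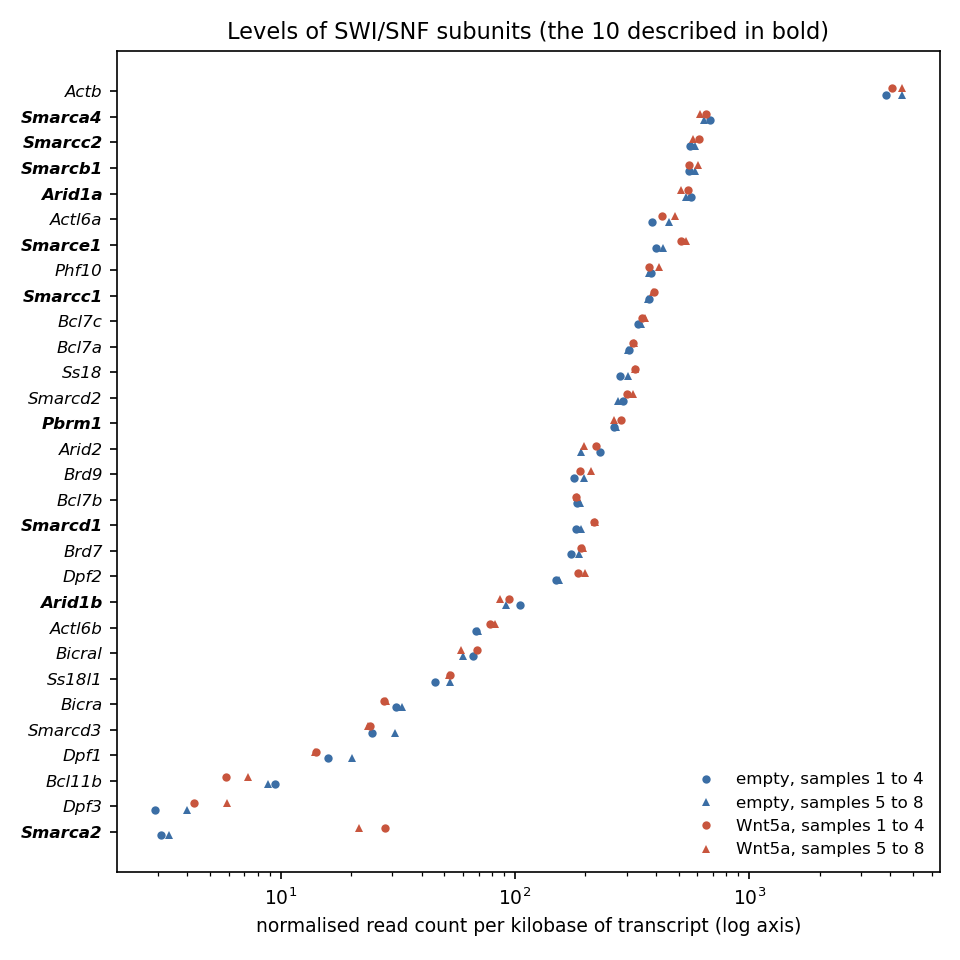
Normalised read count per kilobase of transcript on a log axis, for the 10 SWI/SNF genes (bold) and 20 other subunits; points are libraries, empty in blue and Wnt5a in red, circles for samples 1 to 4 and triangles for samples 5 to 8. Among the bold genes Smarca4 is highest in both groups (662 and 636 per kb on average) and Smarca2 lowest (3.21 and 24.7).

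Samples 5 to 8 were set against samples 1 to 4 in the model of the replicate block, which holds group and library. It leaves 1 residual degree of freedom per gene and differs from the main model, which holds group alone. This contrast did not enter the choice of Smarca2. What separates these sets is not stated in the labels. Of all genes tested 7.41% passed by limma, 411 higher and 505 lower in samples 5 to 8, and this count fell to 0 without the variance trend or without the filter on low values. By limma 0 of the 10 SWI/SNF genes passed, with 2 at an unadjusted p under 0.05, as had 3547 of the 12357 genes; edgeR and DESeq2 were not run on this contrast. Arid1b came nearest, at -0.17 (SE 0.05; limma adjusted p = 0.0695). Smarca2 differed by -0.12 (SE 0.15; limma adjusted p = 0.628) and Smarca4 by -0.09 (SE 0.04; limma adjusted p = 0.205).

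The other subunits of the complexes were taken as a list of 21, of which 20 passed the filter; Bcl11a was too low, at 0 to 0.341 per kb. By limma 0 of the 20 passed between the groups, beside 2.06% of all genes tested. An unadjusted p under 0.05 was found for 2 of the 20, as for 1988 of the 12357 genes. Both edgeR and DESeq2 called 0, beside 246 and 538 of all genes. Sample ranges did not overlap for 2 of the 20, Dpf2 and Ss18, beside 12.4% of all genes tested. Nothing is read from these counts. In direction 14 were higher and 6 lower in Wnt5a cells, and the median log2 difference was 0.06. Dpf2, a PHD-finger subunit of canonical BAF, was at 455, 506 and 554 in empty and 595, 640 and 707 in Wnt5a samples, without overlap. Its log2 difference of 0.34 (SE 0.08) missed the threshold (limma adjusted p = 0.0944) and passed with the replicate block (limma adjusted p = 0.0069). Dpf2 lies on chromosome 19, and with the median of that chromosome taken off -0.01 was left. Bcl11b, a zinc-finger protein that joins BAF in neurons and T cells, was at 63.9, 74.2 and 83.9 in empty and 38.6, 54.4 and 64.4 in Wnt5a samples, barely overlapping. Its difference of -0.48 (SE 0.15) missed the threshold too (limma adjusted p = 0.189) and passed with the block (limma adjusted p = 0.0498). The block called these 2 of the 20, beside 17.0% of all genes tested.

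Among the paralogs of the neuronal exchange, the progenitor forms were the more abundant per kilobase in both groups. Actl6a was at 421 ± 49.0 per kb in empty and 453 ± 38.5 in Wnt5a cells, and Actl6b held 14.1% ± 1.28 and 15.1% ± 0.725 of their sum. Ss18l1 held 14.4% ± 0.505 and 13.9% ± 0.141 of its sum with Ss18. The shares of Actl6b and Ss18l1 differed by no more than the larger SD between libraries. Of the sum of the 3 Dpf genes, Dpf2 held 87.6% ± 1.68 in empty and 91.0% ± 0.0294 in Wnt5a cells, and Dpf1 10.4% ± 1.31 and 6.66% ± 0.399, which are differences larger than either SD and were not tested. Dpf1, a neuronal PHD-finger form, was at 18.1 ± 2.96 per kb in empty and 14.1 ± 0.156 in Wnt5a cells, and its log2 difference of -0.34 (SE 0.18) missed the threshold (limma adjusted p = 0.424). Dpf3 was low, at 3.44 ± 0.763 and 5.09 ± 1.16 per kb and with 33 to 79 reads per library. Its log2 difference was 0.52 (SE 0.27, limma adjusted p = 0.427). Actl6b differed by 0.22 (SE 0.11; limma adjusted p = 0.385).

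Of the other paralogs, Smarcd1 held 37.5% ± 1.23 of the per-kilobase sum of the 3 Smarcd genes in empty and 39.7% ± 0.819 in Wnt5a cells, Smarcd2 56.9% ± 2.10 and 56.0% ± 1.01, and Smarcd3, the muscle and brain form, 5.56% ± 0.871 and 4.31% ± 0.194. Arid2, the ARID subunit of PBAF, was at 212 ± 27.8 and 209 ± 17.5 per kb. Between samples 5 to 8 and 1 to 4, Arid2 was lower, at -0.22 (limma adjusted p = 0.0409), and Actl6a higher, at 0.21 (limma adjusted p = 0.0486); these calls share the dependence on the trend and the filter given above. Brd9 and Bicra, of the non-canonical complex, were at 188 ± 13.7 and 32.1 ± 1.39 per kb in empty and at 200 ± 14.9 and 27.9 ± 0.384 in Wnt5a cells.

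Remodelling ATPases outside SWI/SNF, a list of 20 from the ISWI, CHD and INO80 families and others, served as a comparison. By limma 0 of the 20 passed between the groups, beside 2.06% of all genes tested, and 3 had an unadjusted p under 0.05, as had 1988 of the 12357 genes. Of the 20, edgeR called 0 and DESeq2 called 1, Chd3, beside 246 and 538 of all genes. Their median log2 difference was -0.05, with 8 higher and 12 lower. The largest were Btaf1 at 0.35 (SE 0.08; limma adjusted p = 0.10), Chd3, of the NuRD complex, at 0.31 (SE 0.07; limma adjusted p = 0.102), and Hells, which acts in DNA methylation, at 0.30 (SE 0.08; limma adjusted p = 0.13). All 3 passed with the replicate block, with limma adjusted p-values of 0.0079, 0.0068 and 0.0155, and so did Smarca1, of the ISWI family, at -0.24 (limma adjusted p = 0.0294). The block thus called 4 of the 20, beside 17.0% of all genes tested, so nothing is read from that count. Btaf1 and Hells lie on chromosome 19 and Chd3 on chromosome 11, and with the chromosome medians taken off -0.01, -0.05 and 0.14 were left. Differences in the list ran from -0.24 to 0.35. Smarca2 was chosen for its difference, so the list cannot show how unusual that difference is.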

How the data were processed

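RNA was selected with oligo-dT from 500 ng of total RNA and made into libraries with a NEBNext Ultra kit, per the labels' protocols. The submitters' processing notes name TopHat, Bowtie, HTSeq and DESeq2, without versions or roles; genome build and annotation were not given in the sources used here. The deposited signal values, called normalised read counts here, are 1 per gene and sample. In every sample 100% of them were whole multiples of 1 step (0.934 to 1.11, tolerance 0.01), so whole reads were recovered; edgeR 4.0.16 called 246 genes and DESeq2 1.42.0 538 on them. These count tests are alternatives.

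Genes with a mean value of at least 10 entered limma 3.58.1 (R 4.3.3, trended eBayes) as log2(value + 1); p-values were adjusted by Benjamini-Hochberg over the 12357 genes, with a threshold of 0.05. Samples whose reads agreed within sampling noise (index of dispersion under 1.5, genes averaging 10 reads or more) were averaged as 1 library. Replicate numbers are shared between the groups. Deviations of the library pairs from the group means correlated across genes at r = 0.44. The main limma model held group alone and did not pair the libraries. In the alternative called the replicate block, library (A or B) was added to the model. That pairs the libraries between the groups and leaves 1 residual degree of freedom per gene. The 8 same-numbered sample pairs gave r = 0.17 to 0.22. These values carry the same difference between libraries A and B, and pairs with unlike numbers were not computed. They therefore cannot show that single samples pair by number. The pairing comes from these data; the labels do not say what a number stands for, and samples 1 to 4 are 1 library. Intervals of differences are at 95%. The model code was tested on simulated data.

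Chromosomes came from a RefSeq gene table (GRCm38.p6; 17614 of 17655 symbols matched, 373 through a synonym) and lengths and sequences from GENCODE M21; coding sequence was taken as the longest open reading frame of the longest protein-coding transcript. Strand use in counting was not given. Members and lists were chosen with earlier results of these data known. Named by rule were the 10 genes, the other subunits and remodellers with an adjusted p under 0.05 or the largest differences (5 and 3), the largest of the Polycomb list, the 5 tested neighbours on either side of Smarca2 and Smarcc1, the 5 genes most like Smarca2, and the label checks; others were named for a count after their values were seen.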

Additional observations from a re-analysis of the deposited data

How the results depend on the processing

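Over the alternatives run, the log2 difference of Smarca2 stayed between 2.42 and 3.05; it was 2.42 with a pseudocount of 10 and 2.51 with chromosome medians removed. None of the other 9 genes was called in limma, so no call could be lost; of their 144 values under an alternative 8 passed the threshold and 3 reversed. The reversals came with 1 library left out: Smarcb1 ran from -0.05 to 0.09 and Pbrm1 from -0.01 to 0.08. Of these 9 genes limma called 0; DESeq2 called 1, the 16 samples counted separately 4 (Smarcc1, Smarcd1, Smarce1, Arid1b), the replicate block 2, and leaving out 1 library 0 to 1. Of the other subunits it called 0, against 9 with the 16 samples and 2 with the replicate block. Of the other remodelling ATPases it called 0, against 1 by DESeq2, 8 with the 16 samples, 4 with the replicate block and 0 to 2 with 1 library left out (2, Smarca1 and Btaf1, without empty library B). The block changed no other call of a gene named from these lists, Suz12 aside. Over all genes limma called 254 between the groups, against 538 by DESeq2, 4377 with the 16 samples, 158 without the variance trend, 102 with a minimum value of 50, 146 without a filter and 2095 with the replicate block. With 1 library left out 138 to 1098 were called; the lone library is then assumed to vary like the others. Removing chromosome medians left 118 higher and 89 lower calls, against 171 and 83. The 916 calls between samples 5 to 8 and 1 to 4 became 0 without the variance trend and 0 without a filter. Counting the 16 samples separately treats repeats of a library as replicates; for the rest the cause was not tested. Without division by length, Smarca2 held 0.450% and 3.47% of the ATPase pair, Smarcc1 45.1% and 45.4% and Smarcd1 42.8% and 44.8% of their families in empty and Wnt5a cells, and Arid1a 80.2% and 80.9% of its pair with Arid1b. Arid1a held 64.0% and 64.0% of the sum with Arid1b and Arid2 per kilobase, and 60.8% and 60.8% without division by length. Depth limits Smarca2 in empty cells, with 66 and 78 reads, and Dpf3.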

Other observations

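The Polycomb repressive complex 2, which places a repressive histone mark and is opposed by SWI/SNF, was read through 7 of its genes. By limma 0 of the 7 passed between the groups, beside 2.06% of all genes tested, and 1 had an unadjusted p under 0.05, as had 1988 of the 12357 genes. Both edgeR and DESeq2 called 0, beside 246 and 538 of all genes. Their median log2 difference was 0.01, with 4 higher and 3 lower in Wnt5a cells. Suz12, a core subunit, was at 1883, 1947 and 2014 (lowest, median, highest) in empty and 2067, 2281 and 2380 in Wnt5a samples, without overlap. Its difference of 0.21 (SE 0.08) missed the threshold (limma adjusted p = 0.236) and passed with the replicate block (limma adjusted p = 0.0309). It was the 1 of the 7 called with the block, beside 17.0% of all genes tested. Suz12 lies on chromosome 11, as Smarce1 and Chd3 do, and 0.04 was left with the median of that chromosome taken off.

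The 10 tested neighbours of Smarce1 on chromosome 11 had a median log2 difference of 0.20, with 7 higher in Wnt5a cells, and those of Smarcd1 on chromosome 15 had a median of 0.10, with 8 higher. Both genes lay within the range of their neighbours, -0.54 to 0.42 for Smarce1 and -0.13 to 0.66 for Smarcd1.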
